A study of Arabidopsis thaliana with 46 samples.

Results

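LBD37 (AT5G67420), LBD38 (AT3G49940) and LBD39 (AT4G37540) are 3 of the 38194 gene IDs that the count tables of the series list, and they were taken from the tables by these IDs. All 3 passed the filter on low counts in each of the 3 experiments. They encode LATERAL ORGAN BOUNDARIES DOMAIN (LBD) transcription factors (TFs) of class II, the branch of the plant-specific LBD family that acts in metabolism rather than in organ shape. In Arabidopsis the 3 genes are known to be switched on by nitrate, and their proteins act as repressors of nitrate uptake and reduction genes and of the anthocyanin regulators PAP1 and PAP2. They therefore sit in the feedback arm of the nitrogen (N) response, opposite to the NLP factors that start it.

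The 46 poly(A) RNA-seq libraries came from Arabidopsis thaliana ecotype Col-0, from seedlings labelled as 10 days old, and form 14 groups in 3 experiments. In the N-dose experiment (18 libraries), root protoplasts were transfected with an empty vector that carries the glucocorticoid receptor piece alone (EV) or with a vector for TGA4 fused to it, and were supplied with 20 mM KCl (0N), 5 mM KNO3 (5N) or 20 mM KNO3 with 20 mM NH4NO3 (60N), all in the presence of 35 µM cycloheximide (CHX), which blocks translation, and 10 µM dexamethasone (DEX), which lets the fusion protein enter the nucleus (n = 3 for each of the 6 groups, named by vector and supply, such as EV_0N or TGA4_60N). In the CHX experiment (12 libraries), both vectors were assayed with N and 10 µM DEX, without or with 35 µM CHX (mChx or pChx after the name of the vector, n = 3 in each group). Its N dose is not in the labels and, by the methods, was the 60N supply. In the root and protoplast experiment (16 libraries), whole roots and root protoplasts received 0N or 60N with neither CHX nor DEX (Root or Protoplast before the supply in the group names, n = 4 in each).

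Several features of the design limit these groups as models. By the methods, the replicate wells of a vector were split from the same transfected cells, so that a vector and its transfection cannot be told apart, and p-values measure the spread between wells. The 5N and 60N supplies differ in ammonium as well as in dose, and by the methods the 5N medium also held KCl, which the labels do not give. In the N-dose and CHX experiments N was, by the methods, supplied before CHX was added, so that N acted first with translation running. The protoplasts of the root and protoplast experiment were, by the methods, also transfected with EV and sorted. Seedlings harvested as whole roots came from liquid culture, those used for protoplasts from plates, so that tissue, growth and cell isolation cannot be told apart. In these bulk samples, fewer cells of a type and less RNA per cell cannot be told apart either.

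Libraries held 7.84 to 16.2 megacounts in the N-dose experiment, 2.398 to 8.18 megacounts in the CHX experiment and 9.68 to 17.5 megacounts in the root and protoplast experiment. The level that 3 counts stand for, taken as the floor of detection per library, was 0.167 to 0.427, 0.398 to 1.21 and 0.125 to 0.404 CPM (counts per megacount of the library), respectively. Levels are CPM of totals scaled by trimmed mean of M-values (TMM) within an experiment, so levels of different experiments were not compared by a test. TGA4 itself was at 5161 to 25994 CPM in every library of the TGA4 vector and at 28.9 to 57.4 CPM in every EV library of the N-dose and CHX experiments. In the root and protoplast experiment it was at 29.5 to 36.5 CPM in roots and 54.0 to 228 CPM in protoplasts. Of 13 root cell type markers, all had counts in every whole-root library (summed level 542 to 619 CPM). In protoplasts the sum was 71.4 to 211 CPM, and the cortex marker CO2 was at 0 in each protoplast group but Protoplast_0N. The 4 leaf markers summed to 0.321 to 2.62 CPM in protoplasts and to 24.8 to 110 CPM in whole roots.

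One library went against its label in its N response, on a measure built after the libraries were seen. The library labelled EV_60N replicate 1 was compared with its group on an N-response level, the mean log2 level of 86 genes that rose minus that of 18 genes that fell at least 2-fold in Protoplast_60N over Protoplast_0N, the 3 LBD genes left out. It was at −0.36, while the libraries labelled EV_60N replicate 2 and replicate 3 were at 2.32 and 1.68. The 6 libraries at 0N were between −0.30 and 0.13. Over all genes tested it did not stand apart. Its correlation with the mean of the other EV_60N libraries was 0.985, against 0.984 for replicate 2 and 0.990 for replicate 3. The lowest such value in the N-dose experiment was 0.972, for EV_5N replicate 3. Tests, list counts and pattern correlations that use EV_60N are therefore given with and without this library. Because it was singled out by its low N response, leaving it out favours a higher EV_60N mean for genes that rise with N. Calls gained or lost that way are a description of the dependence on this library and no separate support.

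LBD37 lies on chromosome 5 (26903866 to 26906524, minus strand, TAIR10.1), with 2 annotated transcripts. LBD38 lies on chromosome 3 (18514266 to 18516131, plus strand) and LBD39 on chromosome 4 (17639393 to 17640925, minus strand), with 1 transcript and 2 exons each. Their proteins have 250, 247 and 240 residues by the coding lengths. The longest identical stretch between the exons of any pair was 35 bases (LBD37 and LBD39), and no other annotated gene overlaps any of them. The 250 bases before each annotated start are shown because the 3 genes moved together with N in protoplasts. Capitals mark matches on either strand to TGACG, the core that TGA factors read, and to GAATC, the core read by the HRS1/HHO (NIGT1) repressors.

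LBD37, chr5:26906525-26906774, minus strand: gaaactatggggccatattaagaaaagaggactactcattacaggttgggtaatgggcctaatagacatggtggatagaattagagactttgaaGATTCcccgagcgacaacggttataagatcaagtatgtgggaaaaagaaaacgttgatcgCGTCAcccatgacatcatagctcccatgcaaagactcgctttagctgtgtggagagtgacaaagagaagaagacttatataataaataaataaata

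LBD38, chr3:18514016-18514265, plus strand: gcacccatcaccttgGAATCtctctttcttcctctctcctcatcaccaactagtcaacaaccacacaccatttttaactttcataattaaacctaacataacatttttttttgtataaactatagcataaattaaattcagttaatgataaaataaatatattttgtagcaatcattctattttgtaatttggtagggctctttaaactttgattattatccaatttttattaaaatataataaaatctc

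LBD39, chr4:17640926-17641175, minus strand: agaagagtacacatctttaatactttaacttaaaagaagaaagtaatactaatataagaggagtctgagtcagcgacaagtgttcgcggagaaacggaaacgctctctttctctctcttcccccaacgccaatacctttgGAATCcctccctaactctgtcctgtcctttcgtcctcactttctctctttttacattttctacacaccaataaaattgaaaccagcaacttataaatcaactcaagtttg

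GAATC occurred 1 time in each of the 3 windows, 156, 235 and 110 bases before the start of LBD37, LBD38 and LBD39 (first base of the match). A match to it was present in 38.8% of the 27443 windows of this length before protein-coding genes. TGACG occurred only before LBD37, as its reverse complement, 96 bases before the start, and 18.6% of all windows held it. The longer TGACGT, which contains TGACG, was in none of the 3 windows (7.69% of all windows), nor was GACNCTT, part of the nitrate-responsive element that NLP factors read (7.18%). In the LBD37 window, 100 of the 250 bases also belong to AT5G09915, a long noncoding RNA annotated on the opposite strand.

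**Figure D1:**
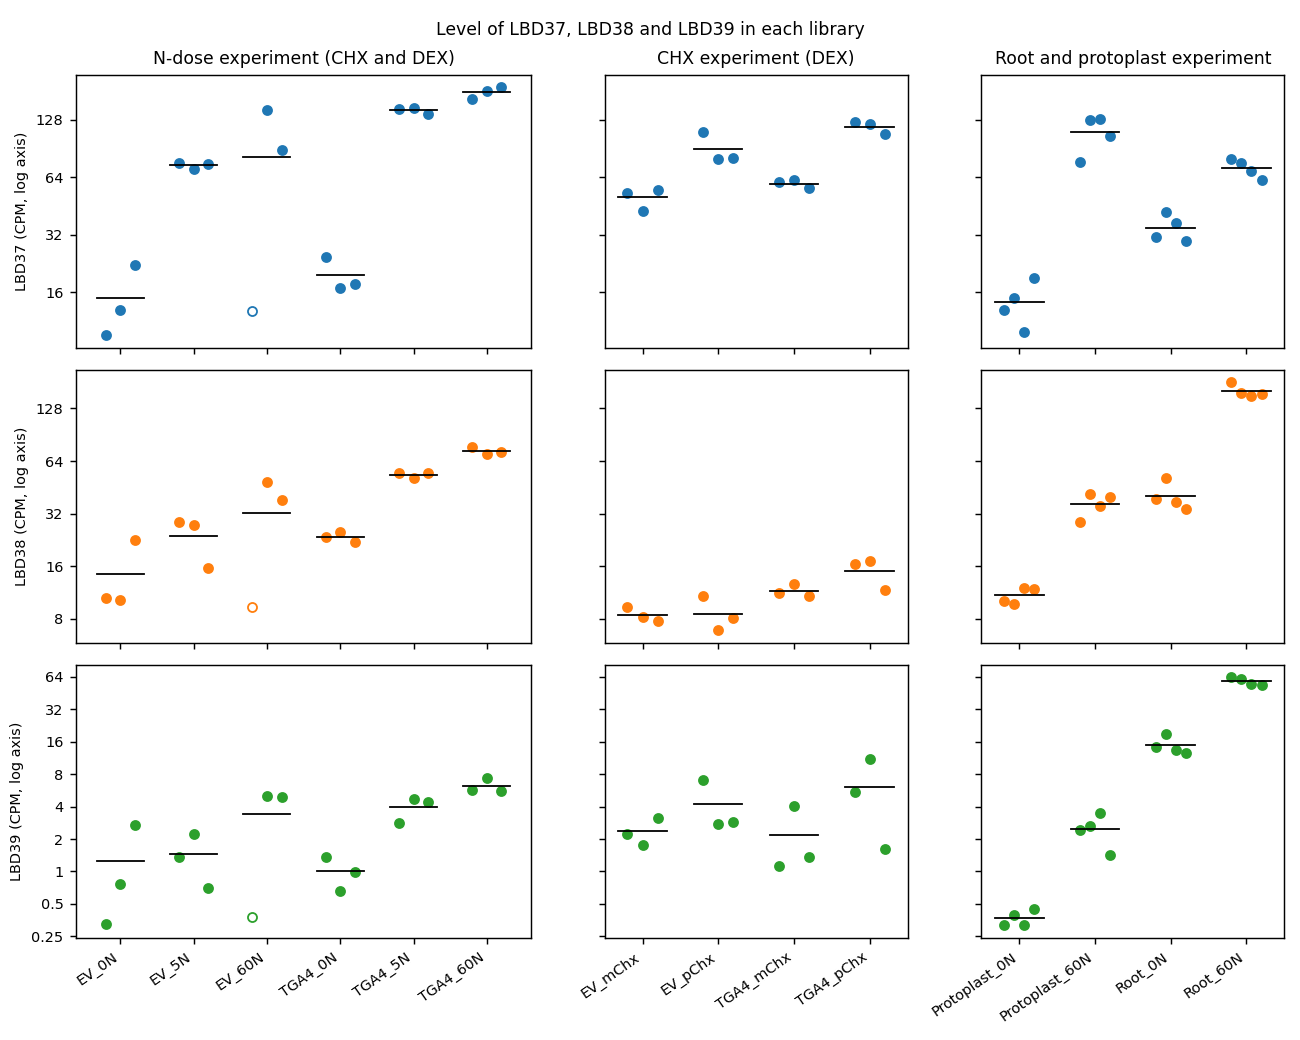
CPM of LBD37, LBD38 and LBD39 (rows, log axis) in each library (points) of the 14 groups, with the group mean as a black line. The open circle is the library labelled EV_60N replicate 1, which is included in the mean. In the right column, all 4 libraries at 60N lie above all 4 at 0N for each gene in both tissues, a separation not counted over all genes.

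Without CHX or DEX, all 3 genes rose with N in protoplasts. LBD37 was at 12.9, 14.9, 9.94 and 19.1 CPM in Protoplast_0N and at 77.2, 128, 129 and 106 CPM in Protoplast_60N. LBD38 was at 10.2, 9.79, 12.1 and 11.9 CPM at 0N and at 28.5, 41.4, 35.5 and 39.8 CPM at 60N. LBD39 was near the floor at 0N, at 0.318, 0.392, 0.317 and 0.452 CPM (3 to 5 counts per library), and at 2.42, 2.64, 3.45 and 1.43 CPM at 60N. In none of the 3 did the groups overlap, and the share of all genes without overlap was not counted. On the log2 scale the increase was 2.95 ± 0.18 (SE) for LBD37, 1.73 ± 0.14 for LBD38 and 2.71 ± 0.36 for LBD39 (adjusted p = 1.1e-09, 1.1e-07 and 7.2e-05, edgeR quasi-likelihood test). Over all genes tested, 1.53% were called higher and 0.876% lower in this comparison. For LBD39, whose 4 Protoplast_0N libraries held 15 counts together, the ratio of pooled levels was 6.66, with an exact 95% interval of 3.84 to 12.4 that covers counting error only.

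In whole roots the 3 genes rose as well, and LBD37 rose least. LBD37 was at 31.0, 42.2, 37.1 and 29.6 CPM in Root_0N and at 80.3, 76.4, 69.2 and 62.0 CPM in Root_60N. LBD38 was at 38.8, 51.4, 37.5 and 34.0 CPM at 0N and at 182, 156, 151 and 155 CPM at 60N, the highest level of any of the 3 genes in this experiment. LBD39 went from 14.4, 18.9, 13.5 and 12.6 CPM to 63.8, 60.8, 55.1 and 54.1 CPM. The groups did not overlap for any of the 3, again without a count over all genes. The increases were 1.04 ± 0.16, 1.99 ± 0.12 and 1.97 ± 0.13 on the log2 scale (adjusted p = 2.4e-05, 5.0e-11 and 1.5e-10), where 17.4% of all genes tested were called higher and 25.7% lower. Leaf markers summed to 24.8 to 103 CPM in Root_0N and to 48.2 to 110 CPM in Root_60N, and their part in these differences was not tested.

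LBD37 was the 1 gene of the 3 whose N response was called different between the tissues. Its increase was larger in protoplasts than in roots by 1.91 ± 0.24 on the log2 scale (interaction, adjusted p = 5.0e-06), in a test that called 14.2% of genes in this direction. For LBD38 the difference was −0.26 ± 0.19 (95% interval −0.65 to 0.13, adjusted p = 0.34), and for LBD39 it was 0.74 ± 0.41 (−0.11 to 1.58, adjusted p = 0.20). These intervals leave room for a difference of either sign.

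Between the tissues at one N supply, LBD39 stood farthest apart. At 0N it was lower in protoplasts by a log2 difference of −5.29 ± 0.25, with 12.6 to 18.9 CPM in roots against 0.317 to 0.452 CPM in protoplasts, and the ratio of pooled levels, Root_0N over Protoplast_0N, was 40.0 (exact 95% counting interval 24.2 to 71.8). LBD38 and LBD37 were lower in protoplasts by −1.88 ± 0.14 and −1.29 ± 0.18. At 0N, 46% of all genes tested were called lower in protoplasts. At 60N, LBD38 (−2.14 ± 0.13) and LBD39 (−4.55 ± 0.18) were lower in protoplasts, where 44.5% of genes were, and LBD37 was higher by 0.62 ± 0.16 (adjusted p = 0.0013), where 40.8% of genes were, but without scaling of the totals this sign turned (−0.21, adjusted p = 0.21). The tissues differ in scaling, with the median of all genes at −0.12 on the log2 scale for Protoplast_60N over Root_60N with TMM and at −0.95 without, and at −0.15 and −1.10 for the comparison at 0N. Relative to other genes, LBD37 was ahead of the median in both scalings at 60N. LBD38 and LBD39 were lower in protoplasts under both scalings.

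Among the 13 genes of nitrate uptake and reduction, which include known targets of these repressors, the 2 tissues parted. In protoplasts, 9 were called higher and 1 lower at 60N (1.53% and 0.876% of all genes tested), with a median of 1.43 on the log2 scale (median of all genes tested 0.00). NIR1 (nitrite reductase, 3.27 ± 0.15), RFNR2 (root ferredoxin reductase, 2.65 ± 0.15), G6PD3 (2.43 ± 0.14) and NIA1 (nitrate reductase, 2.38 ± 0.16) rose most. In roots, 5 were called higher and 7 lower (17.4% and 25.7% of all genes tested), with a median of −1.06 (all genes −0.09). The high-affinity nitrate transporters NRT2.5, NRT2.4, NRT2.2 and NRT2.1 fell most in roots (−6.15 ± 0.36, −5.97 ± 0.25, −4.37 ± 0.31 and −4.03 ± 0.21). The mean level of NRT2.5 in Root_60N was below the floor of detection, so the size of its fall is poorly measured. The response of 12 of the 13 genes was higher in protoplasts than in roots by the interaction test (14.2% of all genes tested), and that of none was lower. NRT2.1 was at 562 ± 194 CPM (SD, n = 4) in Root_0N and 34.4 ± 1.70 CPM in Root_60N, against 3.92 ± 1.67 and 9.22 ± 1.82 CPM in the protoplast groups.

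Of 18 regulators of the nitrate response, 9 were called higher and none lower in protoplasts at 60N (1.53% and 0.876% of all genes tested). In roots 10 were called higher and 4 lower (17.4% and 25.7% of all genes tested), so that the lower count in roots is near the background. BT2 and BT1, which encode BTB/TAZ proteins, rose most in both (3.96 ± 0.20 and 3.62 ± 0.20 in protoplasts, 7.31 ± 0.20 and 6.70 ± 0.23 in roots). The repressor gene HRS1 also rose in both (2.72 ± 0.13 and 2.75 ± 0.12), and its relative HHO1 rose by 3.41 ± 0.43 in protoplasts and by 0.76 ± 0.24 in roots, the root value being added after it was seen. The anthocyanin regulators that these repressors are known to act on had few or no counts. PAP1 had no count in any library of the N-dose or the root and protoplast experiment, and PAP2 had at most 2 counts in any library of the series. Of 9 anthocyanin regulators, 4 could be tested in this experiment, and 2 of them rose in roots, led by MYBL2, a repressor of anthocyanin synthesis (5.78 ± 0.32, from 0.39 ± 0.16 to 21.3 ± 4.32 CPM), while none was called in protoplasts. Of 10 flavonoid and anthocyanin enzymes, 4 were tested, and only F3PH was called with N (−1.32 ± 0.23, in roots).

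The next question was whether the 3 genes differ with N supply in cells that also received CHX. By the methods CHX was added after N, so a response that began before translation was blocked is included. In EV protoplasts with CHX, LBD37 was at 9.56, 13.0 and 22.3 CPM in EV_0N, at 76.2, 70.5 and 75.3 CPM in EV_5N and at 12.7, 143 and 88.7 CPM in EV_60N. The 3 EV_5N libraries were above all 3 at 0N, and the share of all genes separated in this way was not counted. In EV_60N, replicate 1 was within the 0N range and the other libraries were above it. LBD37 rose by 2.30 ± 0.48 on the log2 scale at 5N (adjusted p = 0.020, 1.04% of genes called higher) and by 2.45 ± 0.48 at 60N (adjusted p = 0.0066, 2.3% called higher). Without EV_60N replicate 1, the increase at 60N was 2.96 (adjusted p = 9.1e-08, 2.85% called higher). Leaving out EV_0N replicate 1, 2 or 3 ended the call at 5N (adjusted p = 0.059, 0.084 and 0.054), with the increase at 2.06, 2.21 and 2.71. A fit of EV_60N and EV_0N alone, with all their libraries, also ended the call at 60N (2.45, adjusted p = 0.18).

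LBD38 and LBD39 did not pass the test in EV with every library in the fit. LBD38 was at 10.5, 10.2 and 22.6 CPM in EV_0N, 28.5, 27.6 and 15.7 CPM in EV_5N and 9.33, 48.4 and 38.5 CPM in EV_60N, with overlap between the groups. LBD39 was at 0.324, 0.765 and 2.68 CPM, then 1.36, 2.24 and 0.705 CPM, then 0.377, 5.06 and 4.87 CPM. In both genes, as in LBD37, EV_0N replicate 3 was the highest of its group and EV_60N replicate 1 the lowest. The differences at 60N were 1.17 ± 0.37 for LBD38 (adjusted p = 0.096) and 1.47 ± 0.62 for LBD39 (adjusted p = 0.23). Without EV_60N replicate 1, both were called, at 1.59 (adjusted p = 0.00053) and 1.97 (adjusted p = 0.020), so that 3 of the 3 genes were called higher in place of 1. That library was left out for its low N response, which favours such a gain, so the added calls are no separate support. Leaving out EV_0N replicate 3 also brought LBD38 past the threshold (1.64, adjusted p = 0.040). At 5N the differences were 0.72 ± 0.38 (95% interval −0.07 to 1.52) for LBD38 and 0.18 ± 0.71 (−1.297 to 1.657) for LBD39.

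In TGA4 protoplasts with CHX the replicates lay close together, and the order 0N, 5N, 60N held in every library of each gene. The share of all genes in such an order was not counted, and the step from 5N to 60N was not called for any of the 3 genes. LBD37 was at 24.5, 17.0 and 17.8 CPM in TGA4_0N, at 147, 148 and 137 CPM in TGA4_5N and at 165, 181 and 190 CPM in TGA4_60N. LBD38 was at 23.4, 25.1 and 21.9 CPM, then 54.5, 51.1 and 54.6 CPM, then 77.1, 70.2 and 71.7 CPM. LBD39 was at 1.37, 0.657 and 0.993 CPM, then 2.80, 4.70 and 4.44 CPM, then 5.66, 7.36 and 5.57 CPM. All 3 rose at 60N over 0N, by 3.18 ± 0.48 (adjusted p = 0.0020), 1.64 ± 0.37 (adjusted p = 0.018) and 2.62 ± 0.65 (adjusted p = 0.031) for LBD37, LBD38 and LBD39, where 1.8% of all genes were called higher. At 5N over 0N only LBD37 was called (2.86 ± 0.48, adjusted p = 0.0069, 0.273% of genes called higher). LBD38 and LBD39 differed by 1.19 ± 0.37 and 1.98 ± 0.68 there (adjusted p = 0.46 and 0.61).

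These calls at n = 3 were fragile where the adjusted p was close to the threshold. For LBD39 at 60N, leaving out any 1 of the 6 libraries ended the call (adjusted p from 0.052 to 0.15), with the increase between 2.38 and 2.90. For LBD38 at 60N, leaving out TGA4_0N replicate 2 or 3 or any TGA4_60N library ended it (adjusted p from 0.054 to 0.11), with the increase between 1.59 and 1.69. For LBD37 at 5N, leaving out TGA4_0N replicate 1, 2 or 3 ended it (adjusted p = 0.053, 0.079 and 0.080), with the increase at 3.04, 2.77 and 2.80. A fit of TGA4_5N and TGA4_0N alone brought LBD38 (1.19, adjusted p = 6.5e-06) and LBD39 (1.98, adjusted p = 0.016) past the threshold.

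Raising N from 5N to 60N gave no call for any of the 3 genes in either vector. The differences were 0.15 ± 0.44, 0.44 ± 0.37 and 1.29 ± 0.63 in EV, and 0.32 ± 0.43, 0.45 ± 0.35 and 0.64 ± 0.56 in TGA4, for LBD37, LBD38 and LBD39 (adjusted p from 0.41 to 0.91). Over all genes, 0.0327% were called higher in EV and 0% in TGA4. Without EV_60N replicate 1 the differences in EV were 0.65, 0.87 and 1.79 (adjusted p = 0.15, 0.081 and 0.072, 0.761% of genes called higher). Leaving out EV_60N replicate 2 turned the sign for LBD37 (−0.55) and LBD38 (−0.01). In TGA4, a fit of the 2 groups alone brought LBD37 (0.31, adjusted p = 0.0345) and LBD38 (0.44, adjusted p = 0.0042) past the threshold.

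**Figure D2:**
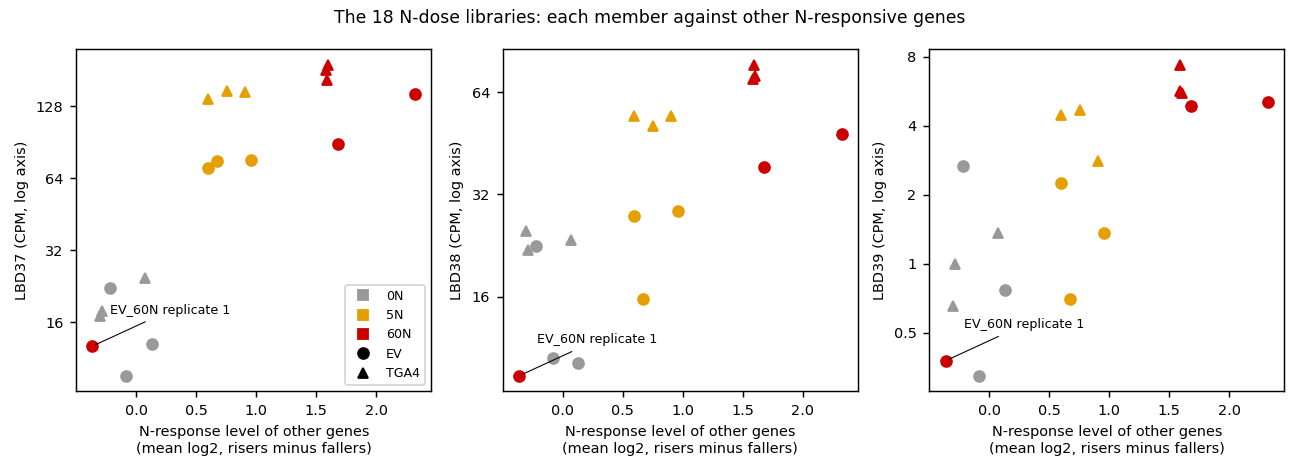
CPM of each LBD gene (log axis) against the N-response level of other genes (86 risers minus 18 fallers, mean log2) in the 18 N-dose libraries, EV as circles and TGA4 as triangles. The library labelled EV_60N replicate 1 lies at −0.36, with the libraries at 0N. This horizontal value is the same in each panel by construction.

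Some genes of nitrate uptake and reduction rose with N in the presence of CHX too. In EV, 7 of the 13 were called higher at 5N and 6 at 60N, and in TGA4, 6 at 5N and 9 at 60N, with none lower, where 1.04%, 2.3%, 0.273% and 1.8% of all genes were called higher. In EV at 60N, 9 were called higher without EV_60N replicate 1 and 1 lower, NRT2.5 (−1.44 ± 0.23). NIR1 (3.81 ± 0.51) and RFNR2 (3.17 ± 0.49) had the largest increases in EV at 5N. NIR1 had the largest in TGA4 at 60N (4.28 ± 0.54). Of the 18 regulators, 3 were called higher in EV at 5N, 6 in EV at 60N (9 without EV_60N replicate 1), 4 in TGA4 at 5N and 7 in TGA4 at 60N, with BT1 and BT2 among those called each time (BT1 3.40 ± 0.63 and 3.81 ± 0.60, in EV at 5N and in TGA4 at 60N).

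The TGA4 comparison asks whether this TF, itself a regulator of the nitrate response, moved the 3 genes at a given N supply. At 0N none was called, with differences of 0.40 ± 0.49 for LBD37 (95% interval −0.62 to 1.41), 0.70 ± 0.38 for LBD38 (−0.096 to 1.496) and −0.34 ± 0.74 for LBD39 (−1.88 to 1.21), where 5.74% of genes were called higher. At 5N none of the 3 passed the test (0.96 ± 0.44, 1.16 ± 0.37 and 1.46 ± 0.65, adjusted p = 0.21, 0.058 and 0.20, 5.41% of genes called higher). The TGA4_5N libraries lay above all EV_5N libraries in each of the 3 genes, a separation whose share over all genes was not counted. The summed root cell type markers also differed without overlap there, at 106 to 113 CPM in EV_5N and 71.4 to 83.5 CPM in TGA4_5N, and at 0N (104 to 116 and 86.4 to 97.1 CPM), and overlapped at 60N (78.1 to 96.8 and 73.8 to 80.5 CPM). Their part in these differences was not tested. At 60N the LBD genes showed the same separation as at 5N, and LBD38 was called (1.17 ± 0.35, adjusted p = 0.047), where 5.21% of genes were called higher. LBD37 and LBD39 were not called (1.12 ± 0.44 and 0.82 ± 0.54, adjusted p = 0.14 and 0.44).

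The LBD38 call at 60N rested on which libraries and settings were used. Without EV_60N replicate 1 it was lost, with a difference of 0.74 (adjusted p = 0.078, 4.65% of genes called higher). It was also lost without EV_60N replicate 3 (1.303, adjusted p = 0.062) and without TGA4_60N replicate 1, 2 or 3 (1.13, 1.20 and 1.18, adjusted p = 0.13, 0.11 and 0.11). DESeq2 (1.20, adjusted p = 0.084), unscaled totals (0.98, adjusted p = 0.085) and a fit of the 2 groups alone (1.18, adjusted p = 0.14) did not call it either. LBD37 was called at 60N only without EV_60N replicate 2 (1.83, adjusted p = 0.014) and with no filter on low counts (1.13, adjusted p = 0.0096), and at 5N in a fit of the 2 groups alone (0.95, adjusted p = 0.00055) and with no filter (0.96, adjusted p = 0.039). Without EV_60N replicate 1 the difference at 60N was 0.62 for LBD37 (adjusted p = 0.12) and 0.32 for LBD39 (adjusted p = 0.76). At 5N, LBD38 was called in a fit of the 2 groups alone (1.16, adjusted p = 0.0055) and with no filter (1.16, adjusted p = 0.0015).

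Whether the effect of TGA4 differed between N supplies was tested directly. The test with 2 degrees of freedom called none of the 3 genes (adjusted p = 0.97 for each) and 0% of all genes by edgeR. The unadjusted p was 0.53, 0.60 and 0.21 for LBD37, LBD38 and LBD39, none below 0.05. The effect at 60N minus that at 0N was 0.73 ± 0.65 for LBD37, with a 95% interval of −0.64 to 2.09. It was 0.47 ± 0.52 for LBD38 (−0.61 to 1.55) and 1.15 ± 0.92 for LBD39 (−0.76 to 3.07). These values were 0.22, 0.04 and 0.65 without EV_60N replicate 1. The intervals are wide, so that a change of the TGA4 effect with N was not detectable at this size rather than absent.

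The CHX experiment compared the levels of the 3 genes with and without CHX. LBD37 was higher with CHX under both vectors, at 52.9, 42.8 and 55.1 CPM in EV_mChx against 110, 79.4 and 81.0 CPM in EV_pChx, and at 60.3, 61.9 and 56.0 CPM in TGA4_mChx against 124, 121 and 108 CPM in TGA4_pChx. The groups did not overlap, and the share of all genes without overlap was not counted. The increase was 0.86 ± 0.14 in EV (adjusted p = 1.7e-05) and 1.00 ± 0.14 in TGA4 (adjusted p = 3.7e-06), at a background of 23.6% and 23.4% of genes called higher. In unscaled totals, where the median of all genes was at −0.30 and −0.34, LBD37 was still called higher, by 0.58 and 0.67. All libraries of the N-dose experiment were made with CHX.

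LBD38 was not called with CHX. It was at 9.30, 8.21 and 7.79 CPM in EV_mChx and 10.8, 6.89 and 8.08 CPM in EV_pChx (0.06 ± 0.24, 95% interval −0.45 to 0.56), and the sign turned in unscaled totals (−0.22). In TGA4 it was at 11.2, 12.6 and 10.8 CPM without and 16.5, 17.1 and 11.7 CPM with CHX (0.41 ± 0.24, adjusted p = 0.18). LBD39 was low and variable, at 2.24, 1.77 and 3.15 CPM in EV_mChx and 7.04, 2.76 and 2.85 CPM in EV_pChx (0.86 ± 0.57, adjusted p = 0.22). In TGA4 it was at 1.12, 4.08 and 1.38 CPM without and 5.52, 11.0 and 1.61 CPM with CHX, groups that overlap. That difference was called (1.61 ± 0.62, adjusted p = 0.037), but not without TGA4_mChx replicate 1 (1.34, adjusted p = 0.13), TGA4_mChx replicate 3 (1.31, adjusted p = 0.16) or TGA4_pChx replicate 2 (0.76, adjusted p = 0.44), nor in DESeq2 (1.57, adjusted p = 0.057) or unscaled totals (1.28, adjusted p = 0.084). The lowest library, TGA4_mChx replicate 1, had 3 counts of LBD39.

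TGA4 against EV was not called for any of the 3 genes in the CHX experiment. Without CHX the differences were 0.24 ± 0.14, 0.46 ± 0.25 and −0.18 ± 0.67 for LBD37, LBD38 and LBD39 (adjusted p = 0.37, 0.33 and 0.92), where 2.91% of genes were called higher. With CHX they were 0.38 ± 0.13, 0.81 ± 0.24 and 0.57 ± 0.52 (adjusted p = 0.17, 0.086 and 0.73), where 0.948% were. The summed root cell type markers were at 149 to 165 CPM in EV_mChx and 128 to 144 CPM in TGA4_mChx, and at 142 to 165 CPM in EV_pChx and 91.1 to 121 CPM in TGA4_pChx, and their part was not tested. Leaving out EV_pChx replicate 1 brought LBD37 past the threshold (0.56, adjusted p = 0.0335). The TGA4 by CHX interaction was 0.14 ± 0.19, 0.36 ± 0.35 and 0.75 ± 0.85 (adjusted p = 0.94, 0.90 and 0.92), and 0.129% of genes were called in either direction.

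Some regulators of the nitrate response differed more with CHX than LBD37 did. Of the 17 regulators tested, 8 were called higher and 3 lower in EV, with a median of 0.33 on the log2 scale, led by HHO1 (4.25 ± 0.33), HHO2 (2.44 ± 0.16) and BT1 (2.42 ± 0.27). In TGA4, 8 were higher and 4 lower, with HHO1 at 4.85 ± 0.37 and BT1 at 3.53 ± 0.30. LBD41, the class II gene that could be tested besides the 3, fell with CHX under both vectors (−1.59 ± 0.20 and −2.57 ± 0.23), from 51.7 ± 5.00 to 17.0 ± 3.97 CPM in EV. Of the 11 genes of nitrate uptake and reduction that were tested, 1 was higher and 3 lower with CHX under each vector (median −0.25 in EV). Of all genes tested, 23.6% were called higher and 24.5% lower in EV, and 23.4% and 22.6% in TGA4, so that these lower counts are near the background.

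**Figure D3:**
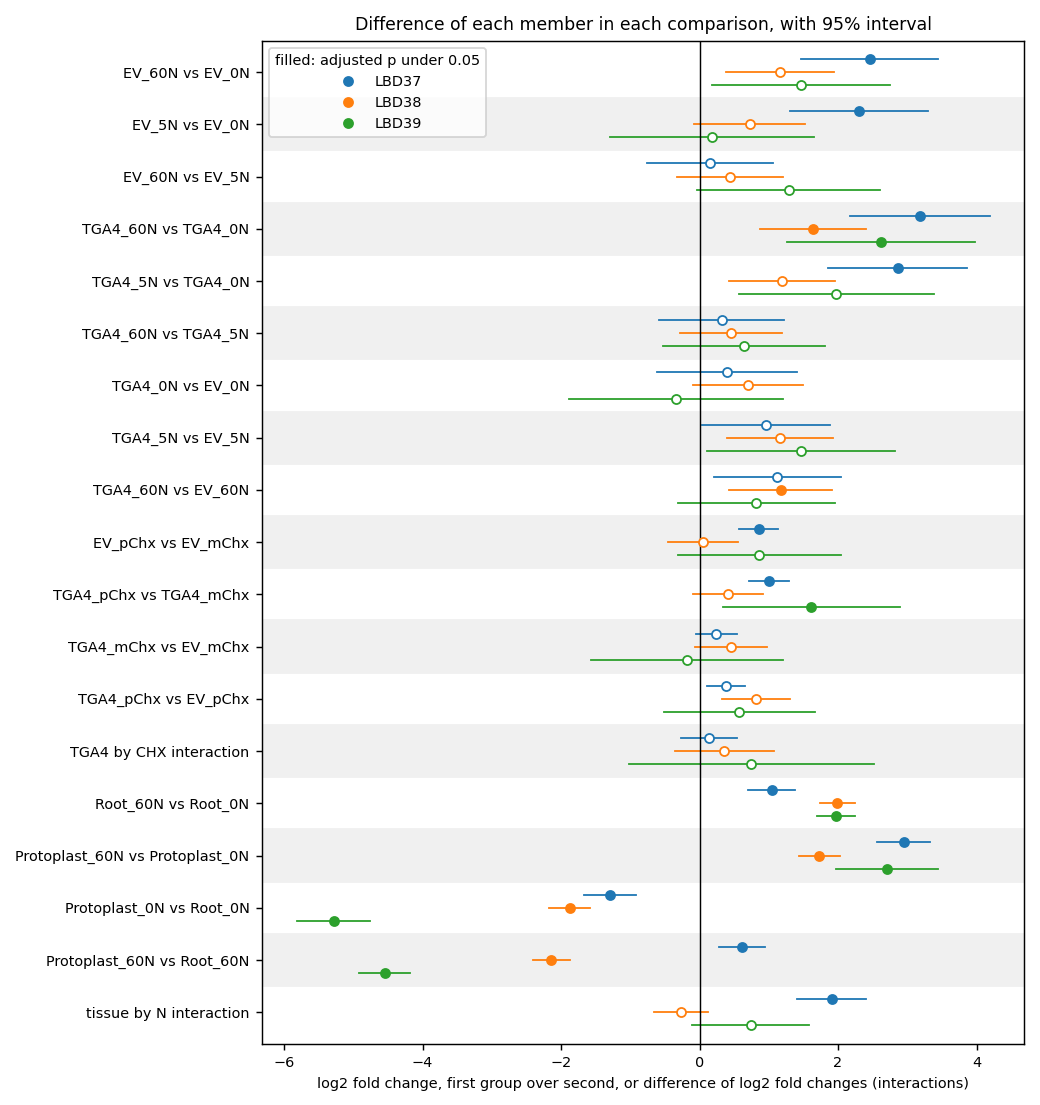
Log2 fold change (points) with its 95% interval (lines) of LBD37, LBD38 and LBD39 in 19 comparisons, filled where the adjusted p was under 0.05. In the experiment without CHX, all 3 genes were called higher with N in roots and in protoplasts. With CHX, all 3 were called higher in TGA4_60N against TGA4_0N. In EV with CHX, only LBD37 was called higher with N when every library was in the fit. Without EV_60N replicate 1, all 3 were called higher in EV_60N against EV_0N (not plotted), but that library was singled out by its low N response, which favours this gain. LBD39 was lowest against roots in protoplasts at 0N (−5.29). The point of LBD37 for Protoplast_60N against Root_60N (0.62) turned to −0.21 in unscaled totals.

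To compare the 3 genes with each other, CPM was divided by the exonic length of the TAIR10.1 annotation (2.572, 1.772 and 1.395 kb), which may differ from the gene models the authors counted. On this scale, the share of LBD37 was larger with N in protoplasts. LBD38 made up 52.2% ± 7.25 (SD, n = 4) of the summed level per kb in Protoplast_0N and LBD37 45.6% ± 7.14, with no common order among the 4 libraries, whereas in Protoplast_60N LBD37 made up 65.4% ± 2.89 and LBD38 31.8% ± 3.25. In TGA4 protoplasts the share of LBD37 was 35.3% ± 4.54 at 0N, 62.8% ± 1.67 at 5N and 60.3% ± 2.59 at 60N (n = 3). At 5N and 60N each TGA4 library had a larger share of LBD37 than any at 0N.

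In whole roots the share of LBD37 was smaller with N. LBD38 led at 0N (48.4% ± 1.23) and at 60N (56.5% ± 1.48), the share of LBD37 was 29.0% ± 2.04 at 0N and 17.4% ± 0.99 at 60N, and LBD39 held 22.6% ± 0.82 and 26.1% ± 0.63. In protoplasts LBD39 held 2.21% ± 0.16 and 2.79% ± 0.93. In the CHX experiment LBD37 led in all 12 libraries, with group means from 74.2% to 82.0%. LBD39 was below LBD38 per kb in each of the 46 libraries, and below LBD37 in all but the 4 Root_60N libraries.

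**Figure D4:**
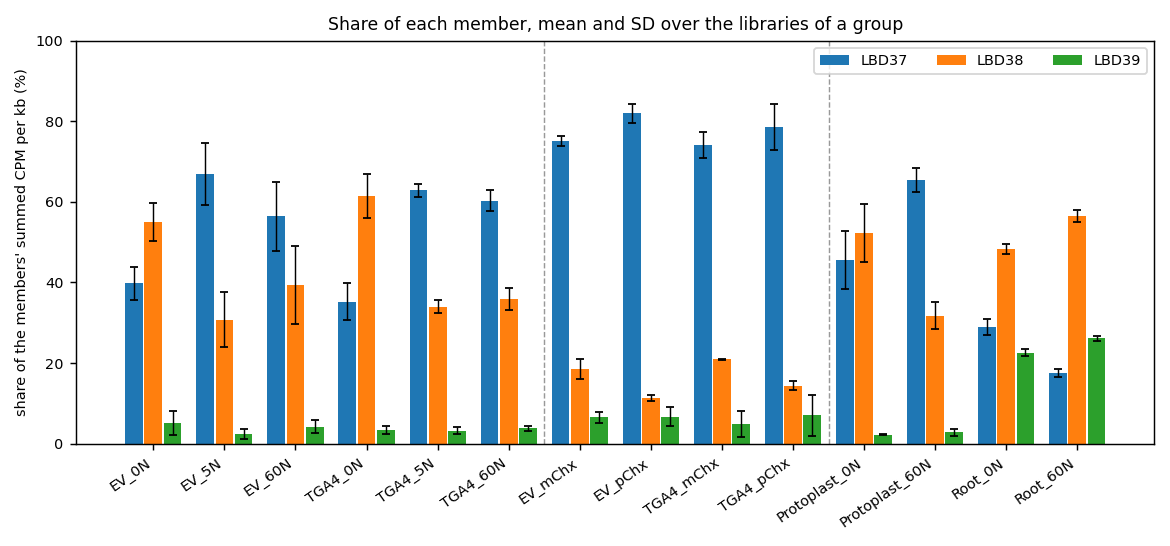
Share of LBD37, LBD38 and LBD39 in their summed CPM per kb of exonic length (bars, mean; lines, SD over the 3 or 4 libraries) in the 14 groups. LBD37 leads in protoplasts supplied with N (65.4% in Protoplast_60N), and LBD38 leads in whole roots (56.5% in Root_60N).

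The order of the groups differed between the genes. In the N-dose experiment, mean LBD37 was highest in TGA4_60N (179 ± 12.6 CPM, SD), then TGA4_5N (144 ± 6.20), EV_60N (81.6 ± 65.6, or 116 without replicate 1), EV_5N (74.0 ± 3.04), TGA4_0N (19.7 ± 4.12) and EV_0N (15.0 ± 6.60). The neighbours TGA4_60N and TGA4_5N, EV_60N and EV_5N, and TGA4_0N and EV_0N were not told apart by the test, and the other neighbouring pairs were not tested. In the root and protoplast experiment LBD37 was highest in Protoplast_60N (110 ± 24.5 CPM), an order against Root_60N (72.0 ± 8.08 CPM) that depends on the scaling as given above. LBD38 and LBD39 were highest in Root_60N (161 ± 14.1 and 58.5 ± 4.62 CPM), then Root_0N (40.4 ± 7.62 and 14.9 ± 2.81 CPM), and Protoplast_60N followed at 36.3 ± 5.78 and 2.49 ± 0.83 CPM. The libraries of Root_0N and Protoplast_60N overlapped for LBD38, and this pair was not tested.

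Likeness of pattern was measured as the mean of 3 Pearson correlations of log2(CPM + 1), over the 18, 12 and 16 libraries of the experiments, among 16584 genes tested in all 3. The libraries share vectors, transfections and N supplies, so the values describe these data. Nearest to LBD37 were ACA4, a calcium pump gene (mean r = 0.88), AT5G10210 (0.87) and BT1 (0.86). Nearest to LBD38 were GLT1, which encodes NADH-dependent glutamate synthase (0.83), LBD39 (0.79) and AT5G62720 (0.78). LBD38 was nearest to LBD39, followed by AT1G49500 (0.75) and AT5G66530 (0.75). LBD38 ranked 15 and LBD39 ranked 34 for LBD37 (0.72 and 0.66). LBD37 and LBD39 were less alike over the roots and protoplasts (r = 0.46) than over the N-dose libraries (r = 0.86). When EV_60N replicate 1 was left out (17 N-dose libraries), the 3 nearest genes of LBD37 and LBD38 were the same, and for LBD39 BZO2H3 (0.75) took the place of AT5G66530 (0.74), which ranked 4.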

How the data were processed

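The authors aligned reads to TAIR10 with TopHat2 (version 2 per the labels) and obtained gene-level read counts through GenomicFeatures and GenomicAlignments. The deposited values are whole-number counts per gene, 1 table per sample, not normalized by the authors. The library kit does not mark strand, and how shared reads were counted is not given in the sources used here. The tables of the CHX experiment list 33341 gene IDs and the others 33016.

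Each experiment was fitted separately in R 4.3.3 by edgeR 4.0.16 (TMM scaling, filterByExpr by group, 1 mean per group, quasi-likelihood F-test). A call needed p under 0.05 after adjustment (Benjamini-Hochberg) over all 18342, 18674 or 21007 genes tested. SEs were derived from the fold change and its F value (|log2 fold change|/√F). Scripts were tested on simulated counts. Alternatives were DESeq2-type size factors, DESeq2, no filter on low counts, no scaling (chosen after seeing the data), a replicate block, a fit of the compared groups alone, and each library left out. The labels give no batch, so the batch factor that the authors modelled was left out.

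The 3 genes, the gene lists and the motifs were chosen with earlier results of these data known. The text names, in comparisons where 1 of the 3 genes was called, up to 4 called genes per list with the largest log2 fold change, listed genes for their level, and for each of the 3 genes the 3 genes nearest in pattern. The N-response level was built after the libraries were seen. Promoter windows, exonic lengths and coordinates come from the RefSeq annotation of TAIR10.1.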

Additional observations from a re-analysis of the deposited data

Results flagged for a closer look

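The N response of LBD37 stood out because it differed between tissues. The log2 increase from 0N to 60N was 2.95 ± 0.18 in protoplasts and 1.04 ± 0.16 in whole roots, a difference of 1.91 ± 0.24 (edgeR interaction, adjusted p = 5.0e-06). All 4 libraries at 60N were above all 4 at 0N in each tissue, a separation not counted over all genes. Leaving out any 1 of the 16 libraries gave differences between 1.66 and 1.98, and unscaled totals gave 2.03. Among the 12 sets of 4 libraries (3 genes in 4 groups), none had a library far from the other 3.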

How the results depend on the processing

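Directions held in all alternatives except those named here, and values are log2 fold changes with the adjusted p of the tool named. Without scaling of library totals (chosen after seeing the data), signs turned for LBD38 in EV_pChx against EV_mChx (−0.22, 0.48) and LBD37 in Protoplast_60N against Root_60N (−0.21, 0.21), and calls were lost for LBD38 in TGA4_60N against EV_60N (0.98, 0.085) and LBD39 in TGA4_pChx against TGA4_mChx (1.28, 0.084). DESeq2 also lost the latter calls (1.20, 0.084, and 1.57, 0.057), and 5 of its LBD39 results had no adjusted p. With no filter on low counts, calls were gained for LBD38 in EV_60N against EV_0N (1.18, 0.0029), TGA4_5N against TGA4_0N (1.18, 0.011) and TGA4_5N against EV_5N (1.16, 0.0015), and for LBD37 in TGA4_5N against EV_5N (0.96, 0.039) and TGA4_60N against EV_60N (1.13, 0.0096). Fits of the 2 groups alone lost LBD37 in EV_60N against EV_0N (2.45, 0.18) and LBD38 in TGA4_60N against EV_60N (1.18, 0.14). They gained LBD38 (1.19) and LBD39 (1.98) in TGA4_5N against TGA4_0N, LBD37 (0.31) and LBD38 (0.44) in TGA4_60N against TGA4_5N, and LBD37 (0.95) and LBD38 (1.16) in TGA4_5N against EV_5N. LBD39 in TGA4_mChx against EV_mChx could not be fitted there. DESeq2-type size factors changed none of 60 results. The cause of these changes was not tested.

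Libraries with the same replicate number deviated little together (mean correlation 0.028, 0.043 and −0.020 in the N-dose, CHX and root and protoplast experiments), which cannot exclude pairing. The replicate block changed the number of genes called from 1098 to 1381 in TGA4_mChx against EV_mChx and from 358 to 541 in TGA4_pChx against EV_pChx. In Protoplast_60N against Protoplast_0N it went from 506 to 404. With the replicate block, LBD39 in TGA4_pChx against TGA4_mChx was 1.48 (adjusted p = 0.0501), and 59 other results kept direction and call.

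Leaving out 1 library at a time changed a call or a sign in these results, given as lowest and highest value. For LBD37 the range was 2.06 to 2.71 in EV_5N against EV_0N, −0.55 to 0.65 in EV_60N against EV_5N, 2.77 to 3.04 in TGA4_5N against TGA4_0N, 0.62 to 1.83 in TGA4_60N against EV_60N and 0.30 to 0.56 in TGA4_pChx against EV_pChx. For LBD38 the range was 0.72 to 1.64 in EV_60N against EV_0N, −0.0077 to 0.87 in EV_60N against EV_5N, −0.16 to 0.19 in EV_pChx against EV_mChx, −0.0076 to 0.92 in the TGA4 by N interaction, 0.74 to 1.62 in TGA4_60N against EV_60N and 1.59 to 1.69 in TGA4_60N against TGA4_0N. For LBD39 the range was −0.30 to 1.38 in EV_5N against EV_0N, 1.01 to 2.67 in EV_60N against EV_0N, −0.094 to 1.46 in the TGA4 by CHX interaction, −0.050 to 1.61 in the TGA4 by N interaction, −0.79 to 0.87 in TGA4_0N against EV_0N, 2.38 to 2.90 in TGA4_60N against TGA4_0N, −0.89 to 0.13 in TGA4_mChx against EV_mChx, −0.27 to 1.20 in TGA4_pChx against EV_pChx and 0.76 to 2.32 in TGA4_pChx against TGA4_mChx. Depth limits LBD39 most, with 3 to 5 counts per library in Protoplast_0N.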

Other observations

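Of the remaining class II LBD genes, none was called higher with N over 0N in any comparison where it could be tested. In these comparisons 0.273% to 17.4% of all genes were called higher. With so few genes tested, this count cannot set the 3 genes apart from the rest of class II. LBD41 was tested in every experiment, LBD40 in roots and protoplasts only and LBD42 in none. LBD41 was at 136 ± 39.4 CPM (SD, n = 4) in Root_0N and 134 ± 37.8 CPM in Root_60N, and at 10.8 ± 2.15 and 13.6 ± 3.22 CPM in the protoplast groups, and it was not called with N in either (−0.02 ± 0.19 in roots and 0.34 ± 0.25 in protoplasts). It was lower in protoplasts than in roots at both N supplies (−3.65 ± 0.23 at 0N and −3.29 ± 0.23 at 60N, edgeR log2 fold change), where 46% and 44.5% of all genes were called lower. LBD40 fell with N in whole roots (−1.91 ± 0.24), from 7.55 ± 2.06 to 1.995 ± 0.25 CPM, opposite in sign to the 3 genes, where 25.7% of all genes were called lower. It stayed at or below 1.13 CPM in the mean of every protoplast group. LBD42 had a mean of at most 0.054 CPM in any group.

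NRT2.5, a nitrate transporter gene of starved plants, was the 1 gene of nitrate uptake and reduction that fell with N in protoplasts without CHX (−0.99 ± 0.13), from 42.3 ± 3.78 to 21.3 ± 2.35 CPM. It was at 3.53 ± 0.56 CPM in Root_0N and 0.04 ± 0.05 CPM in Root_60N, so that, unlike LBD38 and LBD39, it was higher in protoplasts than in roots (8.74 ± 0.28 on the log2 scale at 60N). The Root_60N mean is below the floor of detection, so the size of that difference is poorly measured. In the library labelled EV_60N replicate 1, NRT2.5 was at 50.5 CPM, against 10.8 and 21.3 CPM in the other EV_60N libraries and 42.4 ± 7.78 CPM in EV_0N.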
